A study of Piaractus mesopotamicus with 9 samples.

Results

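The comparison described here is that of pacu myotubes given IGF1 without amino acids with myotubes left without both, 6 of the 9 messenger RNA libraries of the study. Myotubes are the fused, multinucleated muscle cells that myoblasts form in culture, and pacu (Piaractus mesopotamicus) is a South American characiform fish. All cells came from fast-twitch muscle, were cultured to day 8 and were then deprived of amino acids for 12 h. The IGF1 group (3 libraries) next received recombinant IGF1 of the gilthead sea bream in medium that still lacked amino acids, for 24 h by the protocol label and the study's methods, although the treatment field of the labels gives 12 h. For the CTR group (3 libraries) the deprivation went on unrelieved to 36 h. The remaining group, AA (3 libraries), received amino acids instead of IGF1, with the same 2 durations in its labels, and is used here only for the estimate of the spread and to ask where IGF1 differed from it. IGF1 and CTR therefore share glucose and vitamins in the medium and the lack of amino acids, and by the 24 h protocol differ in the hormone. By the treatment field of 12 h they would also differ in the time without amino acids. By the study's methods the results come from 3 independent primary cultures, and it is not stated whether libraries of the same number share a culture. The members are all genes: of 19365 gene names on 69932 annotated contigs (transcripts assembled without a genome), 13162 had a contig whose raw counts averaged at least 10 over the 9 libraries. Each gene is described by 1 contig, the one with the highest mean normalized count.

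IGF1 is a peptide hormone that binds the IGF1 receptor and acts through insulin receptor substrates, PI3 kinase and AKT. In vertebrate muscle AKT activates mTOR complex 1, which promotes protein synthesis, and keeps FoxO transcription factors out of the nucleus, so that genes of atrophy and autophagy are less transcribed. Cells that lack amino acids also use GCN2 and the transcription factor ATF4, whose targets include enzymes of amino acid synthesis, amino acid transporters and aminoacyl-tRNA synthetases. These statements are background and not results of the libraries described here.

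The raw counts summed to 14917361, 4099124 and 53525876 in IGF1 replicates 1, 2 and 3, and to 13394809, 14163429 and 30928843 in CTR replicates 1, 2 and 3. IGF1 replicate 2 was the shallowest of the 6, with 0 counts in 4.33% of the tested contigs, and lay farthest from its group. Its log2 values differed from those of IGF1 replicates 1 and 3 by a root mean square of 0.606 and 0.533, whereas CTR libraries differed from each other by 0.336 to 0.444 and IGF1 from CTR libraries by 0.422 to 0.704. Values of single genes are normalized counts, that is, raw counts that the authors divided by 1 size factor per library, and they compare libraries but not genes, since contig lengths were not used here. Fold-changes are log2 of IGF1 over CTR with their standard error, from a fit by edgeR's quasi-likelihood method to the raw counts of the 9 libraries, and p-values are adjusted by Benjamini-Hochberg over 35575 contigs. In such bulk cultures, fewer cells of a type and less RNA per cell cannot be told apart.

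IGF1 without amino acids changed 386 genes by 2-fold or more with an adjusted p not above 0.05, namely 169 genes up-regulated (1.28% of those tested) and 217 down-regulated (1.65%). At an adjusted p of 0.05 or less with no fold minimum, 407 genes rose (3.09%) and 436 fell (3.31%), and these percentages are the background for the counts of gene lists below. Most changes were moderate. Of the genes that rose, 57 rose by less than 1.5-fold, 181 by 1.5- to 2-fold, 153 by 2- to 4-fold and 16 by more than 4-fold. Of the genes that fell, 41 changed by less than 1.5-fold, 178 by 1.5- to 2-fold, 177 by 2- to 4-fold and 40 by more than 4-fold. The median log2 fold-change of all genes was 0.054. All IGF1 libraries lay above all CTR libraries in 2157 genes (16.4%) and below them in 1813 (13.8%), and among the genes called this held for 404 of those that rose and 431 of those that fell. Leaving out single libraries moved these numbers, and a fit without an IGF1 or CTR library also has fewer replicates to test with. Without IGF1 replicate 1, 96 genes were up-regulated by 2-fold or more, without CTR replicate 2 there were 111 and without CTR replicate 3 there were 107. With no fold minimum, 216 genes rose and 260 fell without IGF1 replicate 1, 251 rose and 252 fell without IGF1 replicate 3, 241 rose without CTR replicate 2, and 188 rose and 241 fell without CTR replicate 3. With the counts of all contigs summed per gene name, 105 were up- and 188 down-regulated.

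**Figure D1:**
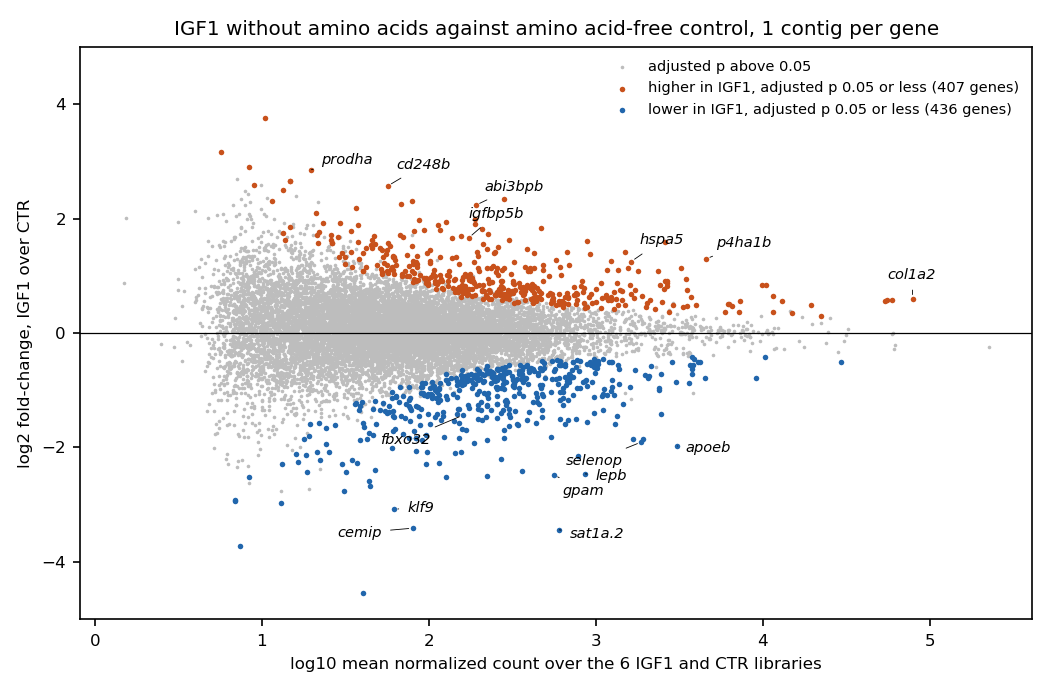
Log2 fold-change of IGF1 over CTR (y axis) against the log10 mean normalized count over the 6 libraries (x axis), 1 point per gene for 13162 genes. Orange points are the 407 genes that rose and blue points the 436 that fell at an adjusted p of 0.05 or less, 1 gene lies outside the drawn range, and the abundant collagen col1a2 rose by 0.60 while sat1a.2 fell by 3.44.

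The smallest adjusted p-values were those of genes that fell. One of them was sat1a.2, a spermidine/spermine N1-acetyltransferase that starts the export and breakdown of polyamines. Its normalized counts were 77.2, 128 and 109 in the IGF1 libraries, against 1191, 964 and 1155 in the CTR libraries (−3.44 ± 0.23, adjusted p = 1.7e-07). The leptin gene lepb had 305, 191 and 282 in the IGF1 libraries, against 1442, 1472 and 1497 in the CTR libraries (−2.46 ± 0.17, adjusted p = 1.7e-07). Genes of this paragraph were taken for their small adjusted p, so that the gap between their groups is no separate result. The counts of gpam, the enzyme that starts glycerolipid synthesis, were 135, 142 and 221 in IGF1 and 831, 1011 and 1028 in CTR (−2.48 ± 0.19, adjusted p = 3.2e-07). For selenop, which encodes the plasma selenium carrier selenoprotein P, they were 928, 629.8 and 791 in IGF1 and 3443, 2586 and 2848 in CTR (−1.91 ± 0.15, adjusted p = 4.5e-07). The gene name znf143b, a zinc finger factor, carried nearly the same counts as selenop in each of these libraries (969, 675 and 834 in IGF1 and 3478, 2622 and 2879 in CTR), and whether the contigs share reads was not tested. Further genes among the smallest adjusted p were the serine protease HTRA3 (−1.82 ± 0.15, adjusted p = 9.4e-07) and the RNA helicase mov10a (−1.34 ± 0.13, adjusted p = 4.7e-06), both lower, and 2 that rose and are described with the secretory path, hspa5 and fkbp9. None of these calls was lost when any 1 library was left out.

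Rises by the rule of largest change included genes with few reads. The cell surface glycoprotein gene cd248b, known from perivascular and stromal cells, had 154, 62.7 and 71.5 in the IGF1 libraries, against 28.1, 12.4 and 11.3 in the CTR libraries (2.57 ± 0.42, adjusted p = 5.7e-04). For hsd11b2, which inactivates glucocorticoids, the counts were 67.3, 54.1 and 60.1 in the IGF1 libraries, against 8.84, 11 and 18.7 in the CTR libraries (2.19 ± 0.38, adjusted p = 0.0012). The rule of largest change took only genes whose groups did not overlap, so their separation is no separate result. Both genes kept their call without any 1 library. Other large rises did not keep it. The patched-domain gene ptchd1 (log2 fold-change 2.90) lost its call without IGF1 replicate 1 or CTR replicate 2 (adjusted p up to 0.065), and the kinase gene STK32B (2.65) lost it without IGF1 replicate 1 or CTR replicate 1 or 3 (adjusted p up to 0.48). The fatty acid synthesis gene aclya (3.17) lost it without IGF1 replicate 1 or CTR replicate 3 (adjusted p up to 0.15). Among the falls, the transporter abcc6a had 11.3, 5.70 and 10.4 in IGF1 and 70.7, 43.1 and 50.9 in CTR (−2.42 ± 0.39, adjusted p = 5.6e-04) and the transglutaminase tgm1l2 7.09, 5.70 and 17.8 in IGF1 and 76.3, 90.5 and 71.1 in CTR (−2.67 ± 0.44, adjusted p = 6.0e-04), whereas the unnamed locus CU463038.2, at 2.13, 0 and 1.6 in IGF1 and 12.9, 9.49 and 15.2 in CTR, lost its call without IGF1 replicate 1 or 3 or CTR replicate 1 or 3 (adjusted p up to 0.15).

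Gene lists, grouped by function, were written from general knowledge with earlier results of these data known, so their shares describe these data and test nothing. They differed widely in how many members passed. The cytosolic aminoacyl-tRNA synthetases (17 of 20 higher), collagen chains (13 of 28), enzymes of procollagen folding and transport (18 of 48), enzymes of serine, asparagine, proline and folate synthesis (12 of 32) and the ER folding machinery (21 of 66) had the highest shares of genes that rose. The FoxO-linked growth brakes (14 of 41 lower) had the highest share of genes that fell. Cytosolic ribosomal proteins had none in either direction at an adjusted p of 0.05 or less in edgeR's test, 1 higher and 0 lower at an unadjusted p under 0.05, and 0 by DESeq2. Where one direction of another list had none, the unadjusted count in that direction was 0 for the synthetases, the ER genes and oxidative phosphorylation, 1 for collagen chains, PI3K genes, ribosome biogenesis and polyamine genes, 2 for autophagy, 3 for DNA replication and 4 for clock genes, and DESeq2 called 0 of these, except 1 each for polyamine genes and DNA replication and 2 for clock genes. Without AA replicate 3, 2 clock genes were called lower and 1 polyamine gene higher, and without AA replicate 1, 1 clock gene was called lower. Genes named to identify a count but given without values were picked after their values had been seen.

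**Figure D2:**
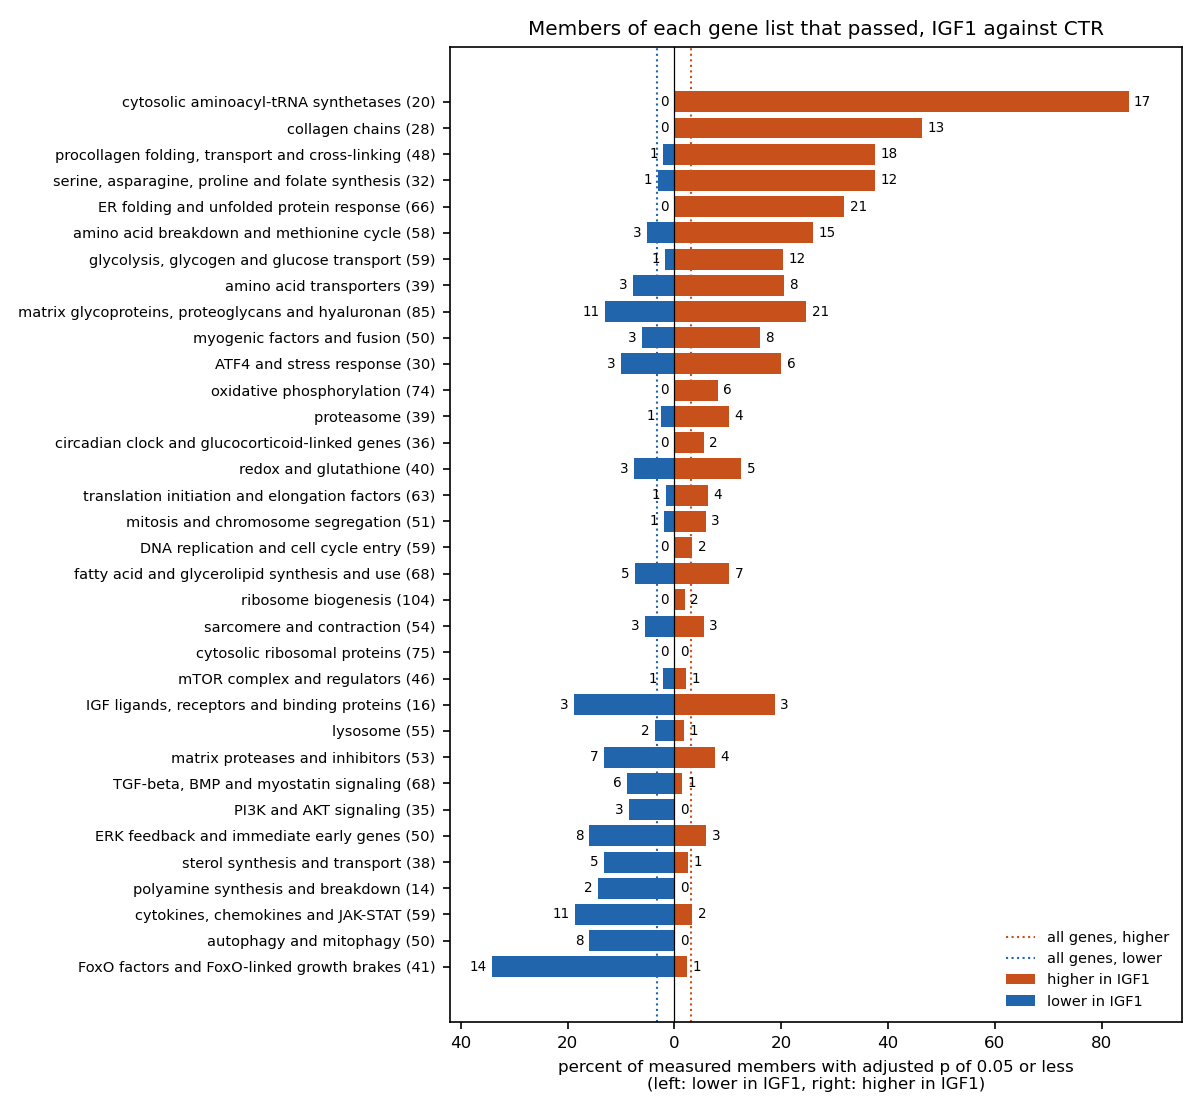
Percentage of the measured members of each gene list with an adjusted p of 0.05 or less, to the right for genes higher and to the left for genes lower in IGF1 than in CTR; the number measured stands in brackets and the number that passed at each bar. Dotted lines mark the 3.09% of all genes that were higher and the 3.31% that were lower, and the bars reach from 17 of 20 aminoacyl-tRNA synthetases at the top to 14 of 41 FoxO-linked genes at the bottom.

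The IGF axis itself changed in its binding proteins. Of 16 measured IGF ligands, receptors and binding proteins, 3 rose and 3 fell, with a median log2 fold-change of −0.324 against 0.054 for all genes. igfbp5b encodes a binding protein found in the extracellular matrix. Its counts were 251, 279 and 264 in the IGF1 libraries, against 66.7, 75.9 and 104 in the CTR libraries (1.66 ± 0.21, adjusted p = 5.2e-05). Its paralog igfbp5a had 76.5, 39.9 and 46.2 in the IGF1 libraries, against 24.9, 18.3 and 24.8 in the CTR libraries (1.29 ± 0.35, adjusted p = 0.031), a call that was lost without IGF1 replicate 1 or 3 or CTR replicate 1, 2 or 3 (adjusted p up to 0.28). igfbp2b, at 129.7, 48.4 and 84.3 in IGF1 and 57.8, 29.2 and 28.3 in CTR, was called higher (1.27 ± 0.35, adjusted p = 0.037) although the lowest IGF1 library lay below the highest CTR library, and it lost its call without IGF1 replicate 1 or 3 or CTR replicate 2 or 3 (adjusted p up to 0.3). In the other direction, igfbp1a, a binding protein that fasting raises in fish and mammals, had 177, 308 and 279.8 in the IGF1 libraries, against 571, 810.3 and 692 in the CTR libraries (−1.46 ± 0.19, adjusted p = 8.4e-05). igfbp6a, which prefers IGF2, was low in the IGF1 libraries, at 1.42, 0 and 4.40 in IGF1 and 18.5, 29.2 and 24.8 in CTR (−2.97 ± 0.61, adjusted p = 0.0048). The ligand gene igf2b had 115, 134 and 145 in the IGF1 libraries, against 206, 303 and 291 in the CTR libraries (−1.02 ± 0.22, adjusted p = 0.0061), with an adjusted p of 0.051 without CTR replicate 3. The receptors did not pass. igf1ra had 2.83, 5.70 and 5.20 in IGF1 and 6.43, 6.57 and 7.07 in CTR (−0.58 ± 0.67, adjusted p = 0.74), igf1rb 0.709, 11.4 and 5.79 in IGF1 and 7.23, 7.30 and 7.43 in CTR (−0.58 ± 0.75, adjusted p = 0.77) and insra 15.6, 5.70 and 8.19 in IGF1 and 8.03, 11.7 and 11.3 in CTR (−0.0028 ± 0.61, adjusted p = 0.999), all at few counts in every library, and igf2r had 67.3, 88.3 and 61.7 in IGF1 and 55.4, 78.8 and 96.9 in CTR (−0.15 ± 0.27, adjusted p = 0.86). Without IGF1 replicate 1 or 3 or CTR replicate 2 or 3 a single member of the list, igfbp5b, was called higher.

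Of 35 measured genes of PI3K and AKT signaling, 3 fell and none rose (median −0.097). pik3ip1, which encodes a membrane protein that restrains PI3 kinase, had 182, 179.5 and 144 in the IGF1 libraries, against 587, 461 and 458 in the CTR libraries (−1.59 ± 0.18, adjusted p = 1.9e-05). The insulin receptor substrates irs2a and irs2b, adaptors between the receptors and PI3 kinase, had 11.3, 28.5 and 24.4 in IGF1 and 56.2, 75.2 and 80.6 in CTR (−1.79 ± 0.36, adjusted p = 0.0045) and 48.2, 76.9 and 82.9 in IGF1 and 124, 133 and 196 in CTR (−1.13 ± 0.26, adjusted p = 0.011). The call of irs2b was lost without IGF1 replicate 1 or CTR replicate 3 (adjusted p up to 0.15). Among the 46 genes of the mTOR complexes and their regulators (median −0.141), 1 rose and 1 fell, while 2 fell without IGF1 replicate 1 and 3 without AA replicate 3. larp1, an RNA-binding protein through which mTOR complex 1 controls translation of ribosomal protein messages, had 307, 254 and 241 in the IGF1 libraries, against 697, 562 and 587 in the CTR libraries (−1.20 ± 0.17, adjusted p = 1.3e-04). DDIT4L, an inhibitor of mTOR signaling in mammals, had 51.7, 39.9 and 40.6 in IGF1 and 17.7, 22.6 and 17.7 in CTR (1.21 ± 0.33, adjusted p = 0.036) and lost its call without IGF1 replicate 1 or 3 or CTR replicate 1, 2 or 3 (adjusted p up to 0.2). The mTOR regulator castor2 (−0.73 ± 0.22, adjusted p = 0.06), the inhibitor subunit tsc1b (−0.59 ± 0.20, adjusted p = 0.089) and the Rag GTPase rraga (−0.35 ± 0.13, adjusted p = 0.14) did not pass.

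FoxO factors and growth brakes linked to them in other vertebrates were often lower: 14 of 41 fell, 1 rose, and the median was −0.591. klf9, a Krüppel-like factor that also answers to glucocorticoids, had 8.50, 34.2 and 9.19 in the IGF1 libraries, against 98.8, 115 and 104 in the CTR libraries (−3.08 ± 0.44, adjusted p = 1.6e-04). fbxo32 encodes atrogin-1, the ubiquitin ligase of muscle atrophy, and its counts were 99.2, 74.1 and 83.1 in the IGF1 libraries, against 243, 239 and 226 in the CTR libraries (−1.44 ± 0.22, adjusted p = 3.6e-04). In both genes all IGF1 libraries lay below all CTR libraries, as in 431 of the 436 genes called lower. The rule of largest change also required this of klf9. The transcriptional repressor hbp1, which holds back the cell cycle, had 163, 157 and 167 in IGF1 and 488, 401 and 462 in CTR (−1.46 ± 0.19, adjusted p = 8.4e-05). The arrestin-domain genes arrdc2 and ARRDC4, the second of which curbs glucose uptake in mammals, had 75.8, 79.8 and 124 in IGF1 and 410.5, 412 and 529 in CTR (−2.21 ± 0.21, adjusted p = 4.3e-06) and 402, 382 and 351 in IGF1 and 901, 761 and 875 in CTR (−1.16 ± 0.15, adjusted p = 6.6e-05). The phosphatase ctdsp2, at 58.8, 19.9 and 33.4 in IGF1 and 212, 174 and 194 in CTR (−2.27 ± 0.30, adjusted p = 9.8e-05), and the cell cycle inhibitor cdkn1d, at 9.21, 0 and 5.20 in IGF1 and 51.4, 27.0 and 18.7 in CTR (−2.42 ± 0.58, adjusted p = 0.015), were lower as well, the second with its call lost without IGF1 replicate 3 or CTR replicate 1 (adjusted p up to 0.11). The related ubiquitin ligase gene fbxo25 had 144, 157 and 131 in the IGF1 libraries, against 206, 268 and 236 in the CTR libraries (−0.74 ± 0.21, adjusted p = 0.044) and lost its call without any 1 of the 6 libraries (adjusted p up to 0.21). The member that rose was rbl2, a pocket protein of the cell cycle, and no member was called higher without any 1 IGF1 library, CTR replicate 2 or 3 or AA replicate 2. Without IGF1 replicate 3, or without CTR replicate 3, 9 members of the list were called lower.

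**Figure D3:**
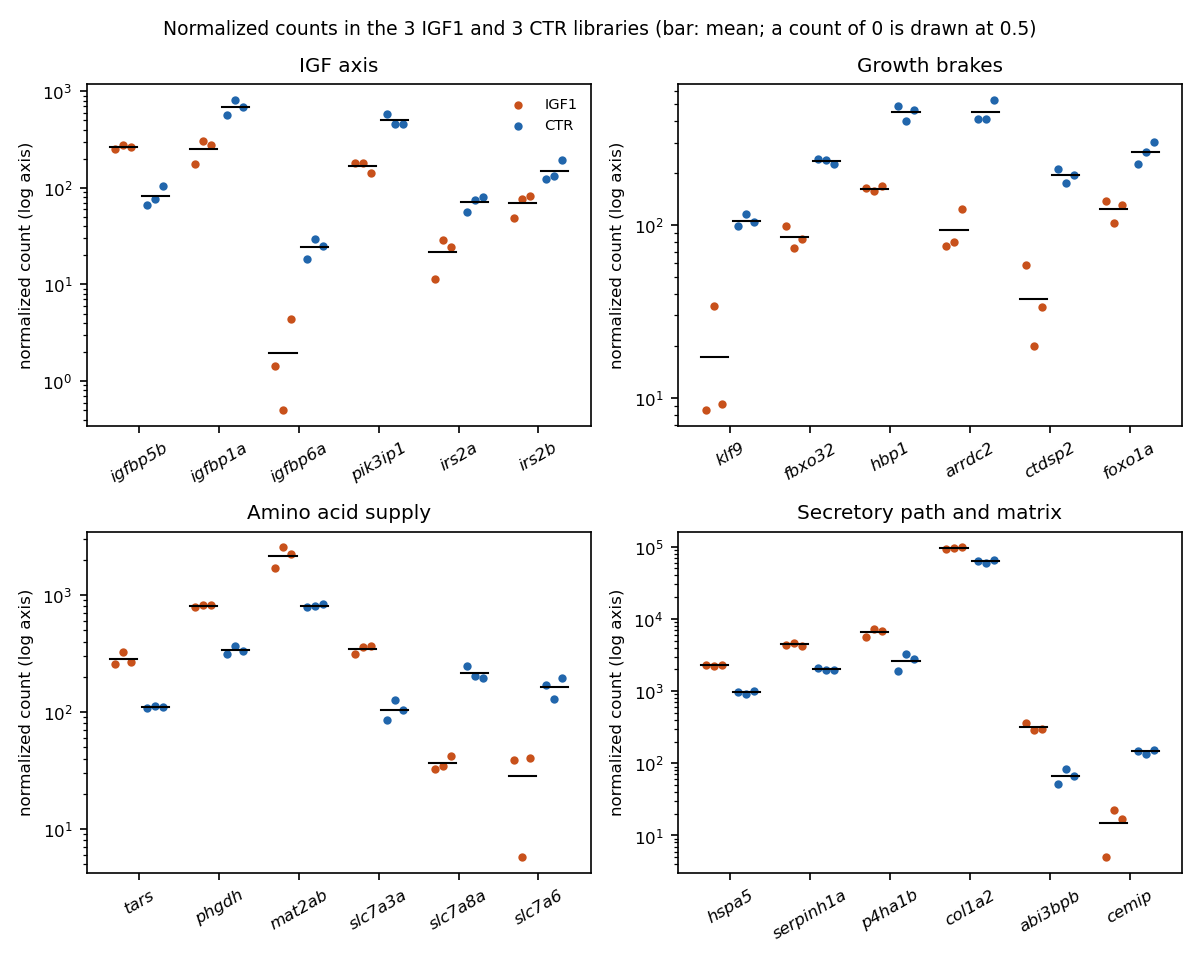
Normalized counts (y axis, log scale) of 24 genes in each of the 3 IGF1 libraries (orange, left) and the 3 CTR libraries (blue, right), with the group mean as a bar and a count of 0 drawn at 0.5. The panels show the IGF axis, growth brakes, amino acid supply and the secretory path with the matrix. These genes were picked with their values known, so that the gap between IGF1 and CTR points in each is no separate result. Of all genes, 16.4% had every IGF1 library above and 13.8% below every CTR library.

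Genes of autophagy and mitophagy leaned the same way, with 8 of 50 lower, none higher and a median of −0.329. map1lc3a, a light chain that coats autophagosomes, had 521, 564 and 529.5 in the IGF1 libraries, against 964, 919.8 and 862 in the CTR libraries (−0.77 ± 0.13, adjusted p = 6.2e-04), and calcoco1a, a receptor for autophagy of the ER, had 151, 159.6 and 183 in the IGF1 libraries, against 318, 280.3 and 312 in the CTR libraries (−0.87 ± 0.17, adjusted p = 0.0032). Both kept their call without any 1 library. The mitophagy receptor bnip3 had 59.5, 65.5 and 61.5 in IGF1 and 150.2, 118 and 129 in CTR (−1.10 ± 0.24, adjusted p = 0.0074), with an adjusted p of 0.054 without IGF1 replicate 3, and its relative bnip3lb had 33.3, 19.9 and 42.0 in IGF1 and 84.3, 89.1 and 76.7 in CTR (−1.27 ± 0.33, adjusted p = 0.024), lost without IGF1 replicate 1 or 2 or CTR replicate 1, 2 or 3 (adjusted p up to 0.1). The list's count was 4 without IGF1 replicate 1, 3 without IGF1 replicate 3, 5 without CTR replicate 1, and 4 without CTR replicate 2 or 3. Of 55 lysosomal genes, 1 rose and 2 fell, and their median was 0.035; neither fall was called without IGF1 replicate 1, IGF1 replicate 3, CTR replicate 2 or CTR replicate 3, and the rise was not called without CTR replicate 3. Of 39 proteasome genes, 4 rose and 1 fell (median 0.131). psme4a, the activator PA200 of the proteasome, had 226, 296 and 261 in the IGF1 libraries, against 449, 439 and 467 in the CTR libraries (−0.81 ± 0.15, adjusted p = 0.0023) and kept its call throughout. The 4 subunits of the core or the regulatory particle that rose, psma3 (0.75 ± 0.17, adjusted p = 0.01), psma5 (0.64 ± 0.16, adjusted p = 0.023), psmb1 (0.59 ± 0.15, adjusted p = 0.02) and psmd1 (0.53 ± 0.15, adjusted p = 0.041), came to 3 without IGF1 replicate 1, 2 without IGF1 replicate 3, 1 without IGF1 replicate 2, CTR replicate 2 or CTR replicate 3, and 0 without CTR replicate 1.

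Aminoacyl-tRNA synthetases load amino acids onto their tRNAs. Of the 20 measured cytosolic ones, 17 rose, none fell, and the median log2 fold-change was 0.656 against 0.054 for all genes. tars, for threonine, had 259, 325 and 269 in the IGF1 libraries, against 109, 112 and 111 in the CTR libraries (1.35 ± 0.19, adjusted p = 1.4e-04). yars, for tyrosine, had 363, 348 and 351 in the IGF1 libraries, against 165, 161 and 157 in the CTR libraries (1.14 ± 0.16, adjusted p = 1.1e-04). Replicates of each group lay close together in both genes. gars, for glycine, had 3512, 3399.9 and 3366 in IGF1 and 1991, 1904 and 1911 in CTR (0.82 ± 0.11, adjusted p = 1.0e-04), and eprs, for glutamate and proline, 4189, 4794 and 4484 in IGF1 and 2921, 2889 and 2854 in CTR (0.63 ± 0.10, adjusted p = 6.7e-04). The others with a call that held without any 1 library were vars (1.09), mars (1.10), qars (0.85), cars (0.83), sars (0.76), larsb (0.73), nars (0.64) and iars (0.58). The 3 that did not pass were aars (0.25 ± 0.10, adjusted p = 0.2), hars (0.49 ± 0.15, adjusted p = 0.061) and dars, the synthetase for aspartate, at 1743, 1642 and 1679 in IGF1 and 1727, 1688 and 1663 in CTR (−0.0031 ± 0.11, adjusted p = 0.99). Between 12 and 18 members were called higher with 1 library left out. The raw counts of the list, summed over all contigs with these names, made up 0.7397 ± 0.0241% of the IGF1 libraries, against 0.5392 ± 0.0166% of the CTR libraries (SD, n = 3 each). Relative to the AA libraries, eprs, iars and gars were also higher in IGF1, with log2 differences of 1.16 (adjusted p = 1.8e-06), 1.02 (7.2e-06) and 1.10 (4.2e-06). These 3 do not stand for all 20 members. The synthetase gene WARS, called higher than CTR, did not pass against AA (0.44, adjusted p = 0.17). By contrast, aars was higher than AA (0.40, adjusted p = 0.022).

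The rest of the translation apparatus moved little in its messages. None of 75 cytosolic ribosomal proteins passed, with a median of 0.058 and a range of −0.187 to 0.262, and over all contigs with these names their share of the raw counts was 4.251 ± 0.552% in IGF1 and 4.249 ± 0.235% in CTR (SD, n = 3 each). Of 104 ribosome biogenesis genes, 2 rose and none fell (median 0.233). They were the nucleolar methyltransferase fbl, at 357, 296 and 295 in IGF1 and 197, 188 and 195 in CTR (0.72 ± 0.17, adjusted p = 0.013), and heatr3, at 83.6, 74.1 and 89.7 in IGF1 and 39.4, 46.7 and 37.8 in CTR (1.02 ± 0.27, adjusted p = 0.026), and neither was called without IGF1 replicate 1 (adjusted p = 0.099 and 0.099), CTR replicate 2 or CTR replicate 3, while 5 of the list were called higher without AA replicate 3. Among 63 translation factors, 4 rose and 1 fell. eif5b, which joins the ribosomal subunits at the start codon, had 1107, 1359 and 1338 in the IGF1 libraries, against 612, 814 and 792 in the CTR libraries (0.77 ± 0.16, adjusted p = 0.0043), the single rise of this list that was called without any 1 library, and the helicase eif4a2 had 769, 681 and 711 in IGF1 and 1092, 1036 and 1014 in CTR (−0.54 ± 0.13, adjusted p = 0.014), lost without IGF1 replicate 2 or 3 or CTR replicate 1 or 3 (adjusted p up to 0.077).

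Enzymes that make amino acids and one-carbon units rose. Of 32 measured genes of serine, asparagine, proline and folate synthesis, 12 rose and 1, the mitochondrial folate carrier slc25a32a, fell, and the median was 0.713. phgdh, the first enzyme of serine synthesis, had 790.1, 821 and 821 in the IGF1 libraries, against 313, 364 and 331 in the CTR libraries (1.27 ± 0.14, adjusted p = 1.5e-05). shmt2, which moves a carbon from serine to folate in mitochondria, had 658, 707 and 647 in the IGF1 libraries, against 252, 315 and 316 in the CTR libraries (1.18 ± 0.15, adjusted p = 6.6e-05). The IGF1 libraries of both genes stood at more than 2 times the CTR libraries. asns (1 of many), for asparagine synthetase, had 1325, 1827 and 1615 in IGF1 and 681, 812 and 728 in CTR (1.10 ± 0.14, adjusted p = 7.6e-05), the mitochondrial folate enzyme mthfd1l 476, 701 and 589.9 in IGF1 and 244, 264 and 284 in CTR (1.14 ± 0.18, adjusted p = 5.6e-04) and ASS1, which makes argininosuccinate from citrulline and aspartate, 356, 430.3 and 378 in IGF1 and 177, 176 and 173 in CTR (1.14 ± 0.17, adjusted p = 2.3e-04). mat2ab, a methionine adenosyltransferase, had 1706, 2559 and 2242 in IGF1 and 793, 807 and 832 in CTR (1.41 ± 0.14, adjusted p = 7.1e-06). The 6 kept their call without any 1 library, and each was also higher in IGF1 than in AA, by 1.0, 0.73, 1.02, 1.39, 1.30 and 1.0 on the log2 scale (adjusted p between 1.2e-04 and 0.0052).

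Genes of amino acid breakdown and of the methionine cycle rose too, with 15 of 58 higher, 3 lower and a median of 0.551. oat, ornithine aminotransferase, had 313, 311 and 344 in the IGF1 libraries, against 80.3, 98.6 and 96.9 in the CTR libraries (1.81 ± 0.19, adjusted p = 8.3e-06). prodha, the first enzyme of proline breakdown, had 39.7, 34.2 and 31.6 in the IGF1 libraries, against 1.61, 5.11 and 6.72 in the CTR libraries (2.86 ± 0.57, adjusted p = 0.0037), with every CTR library at 6.72 normalized counts or fewer. hpdb, of tyrosine breakdown, had 197, 96.9 and 102 in IGF1 and 34.5, 27.7 and 20.5 in CTR (2.31 ± 0.34, adjusted p = 2.3e-04), and qdpra, which regenerates the cofactor of phenylalanine hydroxylase, 193, 248 and 170.1 in IGF1 and 37.8, 63.5 and 53.0 in CTR (1.95 ± 0.26, adjusted p = 8.7e-05). bhmt, which remakes methionine from homocysteine, had 2733, 2379.7 and 2184 in IGF1 and 1209.7, 1119 and 1121 in CTR (1.08 ± 0.15, adjusted p = 1.1e-04). In contrast, glud1a, the glutamate dehydrogenase that feeds glutamate into the citric acid cycle, had 723, 653 and 774 in IGF1 and 1545, 1439 and 1512 in CTR (−1.06 ± 0.13, adjusted p = 5.7e-05). The other falls were aspa, an aspartoacylase, and bckdk, the kinase that blocks breakdown of branched-chain amino acids. The count of 15 was 9 without IGF1 replicate 1, 9 without IGF1 replicate 3 and 8 without CTR replicate 3, while the 6 genes given with values kept their call each time.

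Amino acid transporters split. Of 39 measured, 8 rose and 3 fell (median 0.357). slc7a3a, a carrier of cationic amino acids, had 315, 359 and 368 in the IGF1 libraries, against 85.1, 126 and 104 in the CTR libraries (1.73 ± 0.22, adjusted p = 7.8e-05). slc1a4, for small neutral amino acids, had 499, 633 and 566 in IGF1 and 176, 229 and 205 in CTR (1.47 ± 0.18, adjusted p = 5.9e-05), slc43a1b, for large neutral ones, 199, 168 and 176 in IGF1 and 40.2, 70.8 and 46.3 in CTR (1.80 ± 0.25, adjusted p = 1.6e-04), and slc7a10a, which carries small neutral amino acids, 536, 624 and 529 in IGF1 and 341, 304 and 322 in CTR (0.80 ± 0.15, adjusted p = 0.0023). Against these, slc7a8a, a light chain of neutral amino acid exchange, had 32.6, 34.2 and 42.2 in the IGF1 libraries, against 248, 204 and 197 in the CTR libraries (−2.52 ± 0.28, adjusted p = 1.5e-05), and slc7a6, of the same family, had 39.0, 5.70 and 40.2 in the IGF1 libraries, against 169, 129.9 and 196 in the CTR libraries (−2.29 ± 0.33, adjusted p = 2.0e-04). The third that fell was slc38a5a. Fewer rises passed without IGF1 replicate 2 (5), IGF1 replicate 3 (4), CTR replicate 2 (4) or CTR replicate 3 (4). The 6 transporters with values kept their calls, and their log2 differences from AA had the same sign as those from CTR, at 1.28, 1.0, 0.98, 0.78, −1.48 and −1.32 (adjusted p up to 0.027).

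The ATF4 list, which holds the stress factors themselves with several of their targets, was mixed, with 6 of 30 higher, 3 lower and a median of 0.264. atf4a itself had 3024, 3195 and 3307 in the IGF1 libraries, against 3705, 4290.3 and 4031 in the CTR libraries (−0.34 ± 0.11, adjusted p = 0.07) and did not pass, with all IGF1 libraries below all CTR libraries. ddit3 (0.06 ± 0.12, adjusted p = 0.88), trib3 (−0.37 ± 0.13, adjusted p = 0.11), sesn2 (−0.16 ± 0.16, adjusted p = 0.69) and ddit4 (0.30 ± 0.21, adjusted p = 0.52), which stress factors induce, did not pass either. chac1, which degrades glutathione, had 1724, 2046 and 1817 in the IGF1 libraries, against 869, 866 and 854 in the CTR libraries (1.11 ± 0.16, adjusted p = 2.0e-04). The stress-induced nuclear proteins nupr1b and nupr1a had 2599, 2474 and 2589 in IGF1 and 4748, 4795 and 4524 in CTR (−0.88 ± 0.11, adjusted p = 6.0e-05) and 518, 504 and 504 in IGF1 and 898, 906 and 844 in CTR (−0.79 ± 0.13, adjusted p = 8.5e-04), both lower. The asparagine and tRNA genes asns (1 of many) and nars are members of this list as well. Without CTR replicate 3, 3 members were called higher. Of 14 genes of polyamine synthesis and breakdown, 2 fell, sat1a.2 and oaz2a. oaz2a, an antizyme that limits polyamines, had 168, 114 and 197 in IGF1 and 398, 491 and 446 in CTR (−1.41 ± 0.18, adjusted p = 7.6e-05), whereas odc1, the first enzyme of polyamine synthesis, was at 24.8, 19.9 and 21.0 in IGF1 and 8.03, 8.03 and 7.78 in CTR (1.48 ± 0.44, adjusted p = 0.054).

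Genes of the secretory path were often higher. Of 66 genes of ER folding and the unfolded protein response, 21 rose, none fell, and the median was 0.473. hspa5, the main ER chaperone BiP, had 2304, 2251 and 2309 in the IGF1 libraries, against 958, 917 and 1012 in the CTR libraries (1.25 ± 0.11, adjusted p = 1.9e-06). rrbp1b, a ribosome receptor of the rough ER, had 923, 1046 and 931 in the IGF1 libraries, against 370.3, 466 and 432 in the CTR libraries (1.19 ± 0.15, adjusted p = 7.6e-05). The spread among replicates was small against the difference in both, which were taken for their small adjusted p. The lectin chaperone canx had 323, 296 and 313 in IGF1 and 145, 173 and 183 in CTR (0.90 ± 0.17, adjusted p = 0.0025), and the subunits of oligosaccharyltransferase rpn1 and stt3a had 972, 960.4 and 929 in IGF1 and 527, 635 and 628 in CTR (0.68 ± 0.13, adjusted p = 0.0028) and 1072, 1140.0 and 1102 in IGF1 and 704, 682 and 743 in CTR (0.64 ± 0.13, adjusted p = 0.0044). The disulfide isomerase pdia5 (0.70 ± 0.15, adjusted p = 0.0063) lost its call without IGF1 replicate 1 or CTR replicate 3 (adjusted p up to 0.064). The count of 21 was 8 without IGF1 replicate 1, 12 without IGF1 replicate 3, 12 without CTR replicate 2 and 6 without CTR replicate 3. The list median stayed between 0.416 and 0.522 with any 1 library left out. Rises over all genes also became fewer, from 407 to 216 without IGF1 replicate 1 and 188 without CTR replicate 3. With the counts of all contigs summed per gene name, 10 members of the list were called higher. herpud1, an ER stress gene of the ATF4 list, had 323, 419 and 355 in IGF1 and 324, 347 and 332 in CTR (0.11 ± 0.15, adjusted p = 0.78). Relative to AA, hspa5 and canx did not pass (0.24, adjusted p = 0.23, and 0.09, adjusted p = 0.84).

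Helpers of procollagen rose together with the ER genes. Of 48 genes of procollagen folding, transport and cross-linking, 18 rose and 1, the lysyl oxidase-like gene loxl1, fell, with a median of 0.425. fkbp9, a prolyl isomerase of the ER, had 1519, 1245 and 1236 in the IGF1 libraries, against 427, 484 and 405 in the CTR libraries (1.61 ± 0.15, adjusted p = 2.6e-06). serpinh1a and serpinh1b, which encode the collagen chaperone HSP47, had 4379, 4711 and 4180.3 in IGF1 and 2121, 1977 and 1934 in CTR (1.14 ± 0.12, adjusted p = 7.1e-06) and 2960.0, 3446 and 3164 in IGF1 and 1449.8, 1683 and 1354 in CTR (1.09 ± 0.12, adjusted p = 2.1e-05). Both copies of the chaperone gene stood at about the same fold. p4ha1b, a catalytic subunit of the prolyl hydroxylase that stabilizes the triple helix, had 5568, 7187 and 6719 in IGF1 and 1890.0, 3224 and 2804 in CTR (1.30 ± 0.18, adjusted p = 1.4e-04), rcn3, an ER calcium-binding protein, 2052, 2186 and 2201 in IGF1 and 994, 981 and 954 in CTR (1.14 ± 0.11, adjusted p = 6.3e-06), and fkbp10b, a second prolyl isomerase, 3355, 3463 and 3357 in IGF1 and 1739.8, 1806 and 1887 in CTR (0.90 ± 0.11, adjusted p = 2.9e-05). The list's count was 11 without IGF1 replicate 1, CTR replicate 1 or CTR replicate 3, and these 6 genes were called each time, whereas the fall of loxl1 was not called without IGF1 replicate 1 or 3 or CTR replicate 1 or 3.

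Collagen messages made up a large part of these libraries, and a larger one with IGF1. Over all 186 contigs with the name of a collagen chain on the list, they took 20.63%, 19.66% and 21.52% of all raw counts in IGF1 replicates 1 to 3, against 14.88%, 14.39% and 14.79% in CTR replicates 1 to 3. The single contigs that describe the 28 measured chains here took 3.718%, 3.531% and 3.83% in IGF1, against 2.653%, 2.586% and 2.621% in CTR. Of the 28, 13 rose, none fell, and the median was 0.522. col1a2, of type I collagen, had 91748, 95256 and 97997 in the IGF1 libraries, against 63049.8, 59289 and 65623 in the CTR libraries (0.60 ± 0.08, adjusted p = 7.1e-05). The other type I chains col1a1a and col1a1b had 64381, 67423 and 66192 in IGF1 and 45388, 42255 and 45496 in CTR (0.57 ± 0.07, adjusted p = 7.1e-05) and 61651, 64722 and 64933 in IGF1 and 43709, 41685 and 44283 in CTR (0.56 ± 0.07, adjusted p = 8.7e-05). These changes were under 2-fold but well beyond the spread of the replicates. The type VI chains col6a1 and col6a2 rose (0.65 ± 0.09 and 0.84 ± 0.09, adjusted p = 9.8e-05 and 1.5e-05), while the third, COL6A3, did not pass (0.18 ± 0.10, adjusted p = 0.38). The cartilage-type chains col2a1b (0.59 ± 0.07, adjusted p = 6.0e-05), col2a1a (1 of many) (0.57 ± 0.09, adjusted p = 4.1e-04) and col11a1b (0.56 ± 0.10, adjusted p = 0.002) rose. So did col10a1a, at 465, 447 and 502 in IGF1 and 31.3, 62.1 and 175 in CTR (2.33 ± 0.45, adjusted p = 0.0025), and col27a1b, at 306, 339 and 339 in IGF1 and 111, 109 and 135 in CTR (1.46 ± 0.20, adjusted p = 9.8e-05). Of the 13, 3 chains lost their call without some library, namely col10a1b without IGF1 replicate 1, 2 or 3 or CTR replicate 1 or 2 (adjusted p up to 0.12), col11a2 without IGF1 replicate 1 or 3 or CTR replicate 1 or 2 (adjusted p up to 0.1) and col16a1 without IGF1 replicate 1 or 3 or CTR replicate 2 or 3 (adjusted p up to 0.18). Type V and type XII chains did not pass, with col5a1 (0.24 ± 0.15, adjusted p = 0.44), col5a2a (0.24 ± 0.12, adjusted p = 0.34), col12a1a (0.38 ± 0.14, adjusted p = 0.14) and col12a1b (−0.30 ± 0.14, adjusted p = 0.26), and neither did the basement membrane chain col4a2 (0.04 ± 0.15, adjusted p = 0.95). Collagen genes resemble each other in sequence, and since the counting step is not given in the sources used here, reads may be split among chains.

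**Figure D4:**
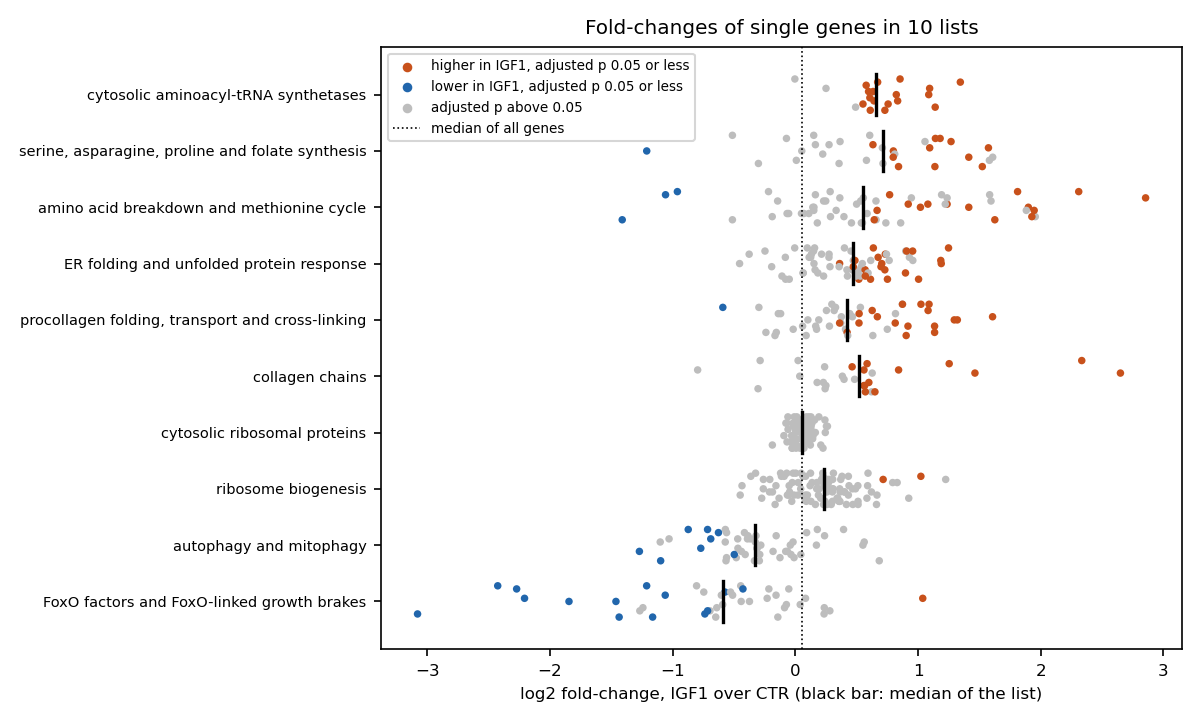
Log2 fold-change of IGF1 over CTR (x axis) for each measured member of 10 gene lists (rows), orange where called higher, blue where called lower, grey where the adjusted p was above 0.05. Black bars are list medians, from 0.713 for serine and folate synthesis to −0.591 for FoxO-linked brakes, and the dotted line is the median of all genes, 0.054; ribosomal proteins lie tightly around it.

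Other matrix genes moved both ways. Among 85 matrix glycoproteins, proteoglycans and hyaluronan genes, 21 rose and 11 fell (median 0.128). abi3bpb, a matrix protein that binds collagen in mammals, had 357, 285 and 303 in the IGF1 libraries, against 51.4, 84.0 and 66.5 in the CTR libraries (2.23 ± 0.25, adjusted p = 1.6e-05). aspn, a small leucine-rich proteoglycan that binds collagen and TGF-beta, had 599.5, 675 and 583 in the IGF1 libraries, against 182, 270.1 and 249 in the CTR libraries (1.40 ± 0.19, adjusted p = 9.8e-05). In both genes all IGF1 libraries lay above all CTR libraries, as in 404 of the 407 genes called higher. The rule of largest change also required this of abi3bpb. tgfbi, an adhesion protein induced by TGF-beta, had 3508, 3459.8 and 3438 in IGF1 and 1602, 1957 and 1962 in CTR (0.91 ± 0.12, adjusted p = 1.1e-04), and HAPLN1 (1 of many), which links hyaluronan to proteoglycans, 1045, 522 and 617 in IGF1 and 275, 191 and 159 in CTR (1.83 ± 0.24, adjusted p = 7.6e-05). In the other direction, cemip, which takes part in hyaluronan breakdown, had 4.96, 22.8 and 16.8 in the IGF1 libraries, against 149, 134 and 155 in the CTR libraries (−3.41 ± 0.40, adjusted p = 2.5e-05), and podn, a small leucine-rich proteoglycan, had 415, 362 and 412 in IGF1 and 1312, 1049.8 and 1013 in CTR (−1.49 ± 0.14, adjusted p = 4.2e-06). The number that rose was 12 without IGF1 replicate 1 or CTR replicate 3. Of 53 matrix proteases and inhibitors, 4 rose and 7 fell (median −0.021). mmp14b, a membrane-anchored metalloprotease, had 764, 889 and 792 in the IGF1 libraries, against 1622, 1516 and 1789 in the CTR libraries (−1.02 ± 0.12, adjusted p = 2.7e-05) and was also lower than in AA (−1.32, adjusted p = 1.8e-06). The collagenase mmp13b had 139, 91.2 and 90.9 in IGF1 and 345, 269 and 319.7 in CTR (−1.52 ± 0.20, adjusted p = 9.8e-05), pamr1, a secreted protein with a protease-like domain, 161, 308 and 392 in IGF1 and 995, 1356 and 1478 in CTR (−2.15 ± 0.23, adjusted p = 1.4e-05), and adam19a 1015, 1052 and 847 in IGF1 and 1805, 1675 and 1889 in CTR (−0.89 ± 0.13, adjusted p = 1.7e-04). adamts12 went the other way, at 407, 362 and 377 in IGF1 and 146, 128 and 131 in CTR (1.51 ± 0.21, adjusted p = 1.6e-04).

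Markers of the cell types that such a culture can hold were read beside these results. The skeletal myotube list was detected, with myog, mymk and actc1a counted in every library, but des had no contig and tnnc2, cacna1s and casq1 had 18, 29 and 11 raw counts over the 3 IGF1 libraries, against 7, 17 and 13 over the 3 CTR libraries. Summed over all contigs with these names, its level was 564.8 to 629.8 CPM (raw counts scaled to the library total) in IGF1 and 572.2 to 605.5 in CTR, which overlap. Of 15 measured genes 4 were higher and 1 lower (median 0.576), and 1 to 4 were called higher and 0 or 1 lower with 1 library left out. Over the 1 contig per gene that describes them, to which actc1a and ACTA1 contribute most, the sums were 377.9 to 412.3 CPM in IGF1 and 432.0 to 487.6 in CTR. Markers of myoblasts and satellite cells summed to 61.81 to 78.17 CPM over all contigs in IGF1 and 81.9 to 106.0 in CTR, without overlap, as in 13.8% of single genes. Of 6 measured genes none was called higher and 1 lower (median −0.433), a call lost without IGF1 replicate 1 or CTR replicate 2 or 3. Without AA replicate 3, 1 was called higher and 2 lower. Of the 6, 2 had positive fold-changes. Contigs of pax7 and myf5 held 2695 and 902 raw counts in IGF1 and 3477 and 1322 in CTR. Those of myod1 and cdh15 held 852 and 908 in IGF1 and 384 and 518 in CTR. The list for fibroblasts and connective tissue stood at 123200 to 137000 CPM over all contigs in IGF1 and 89350 to 91030 in CTR, and 7 of its 10 measured genes rose. It shares col1a1a, col1a1b and col1a2 with the collagen list. Of the others, dcn (0.47 ± 0.10, adjusted p = 0.0091), postna (0.88 ± 0.14, adjusted p = 5.6e-04), postnb (1.41 ± 0.30, adjusted p = 0.0058) and pdgfra (1.01 ± 0.24, adjusted p = 0.016) rose. Neither lum (−0.03 ± 0.11, adjusted p = 0.94) nor twist1a (−0.61 ± 0.29, adjusted p = 0.28) passed, nor did the remaining measured member, the lowest of the list at −0.738. No contig was found for col3a1, tcf21 and thy1. Without IGF1 replicate 1 or CTR replicate 3, 4 genes of the list were called higher. Markers of smooth muscle and pericytes summed to 1250 to 1270 CPM over all contigs in IGF1 and 1731 to 2040 in CTR, with tagln (−0.85 ± 0.11, adjusted p = 9.2e-05) and acta2 (−0.62 ± 0.11, adjusted p = 0.0013) lower and cspg4 (1.62 ± 0.24, adjusted p = 2.1e-04) higher. The contigs of acta2, ACTA1 (1 of many) and actc1a carry the same gene identifier of the assembly, and whether they share reads was not tested. Other contigs of these 3 names reached log2 fold-changes of 0.25, 0.80 and 0.39, and none was called higher. Endothelial markers stood at 31.71 to 40.41 CPM in IGF1 and 39.94 to 51.75 in CTR, adipocyte markers at 32.06 to 40.25 in IGF1 and 25.61 to 29.72 in CTR, without a call in either list. Leukocyte markers stood at 3.456 to 5.855 CPM in IGF1 and 0.9705 to 3.248 in CTR, and mpeg1, lcp1 and coro1a had no contig. Erythroid and Schwann cell markers had 4 and 24 raw counts in all IGF1 libraries, against 0 and 47 in all CTR libraries. In every library of both groups the list for fibroblasts and connective tissue held more counts than the skeletal myotube list. Counts do not compare genes here, so this gives no share of cells. Contigs named col1a1 and col1a2 with their paralogs held 2703639 and 6720082 of that list's 9794425 raw counts in IGF1. In CTR they held 1503744 and 3541912 of 5281138. Which cells of the culture made the matrix messages was not tested, nor was the part of cell composition in the matrix and muscle results.

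Most muscle genes did not pass, but a larger share of the myogenic list rose than of all genes. Of 50 myogenic and fusion genes, 8 rose, against 3.09% of all genes, and 3 fell (median 0.195). myog, the myogenic factor of terminal differentiation, had 527, 416 and 462 in the IGF1 libraries, against 274, 209 and 322 in the CTR libraries (0.81 ± 0.19, adjusted p = 0.011) and lost its call without IGF1 replicate 1 or CTR replicate 2 (adjusted p up to 0.083). mymk, the fusogen myomaker, had 91.4, 157 and 126 in the IGF1 libraries, against 84.3, 53.3 and 62.2 in the CTR libraries (0.87 ± 0.25, adjusted p = 0.043) and lost it without IGF1 replicate 2 or 3 or CTR replicate 2 or 3 or AA replicate 2 (adjusted p up to 0.2). The groups did not overlap in either gene, as in 404 of the 407 genes called higher. bin1b, a membrane-bending protein of T-tubules, had 99.2, 145 and 95.9 in IGF1 and 49.8, 44.5 and 48.4 in CTR (1.20 ± 0.24, adjusted p = 0.004) and kept its call, as did the falls of itgb1b (−0.57 ± 0.12, adjusted p = 0.0043) and marcksl1b (−0.90 ± 0.18, adjusted p = 0.003). marcksb had 59.5, 39.9 and 45.4 in IGF1 and 37.8, 21.9 and 38.9 in CTR (0.57 ± 0.38, adjusted p = 0.49) and did not pass against CTR, but was lower than in AA (−1.79, adjusted p = 0.0048). Among factors of the undifferentiated state, myf5 had 39.0, 57.0 and 80.5 in IGF1 and 106, 141 and 138 in CTR (−1.08 ± 0.25, adjusted p = 0.013), lost without IGF1 replicate 1 or CTR replicate 2 or 3 (adjusted p up to 0.096), while pax7b (−0.76 ± 0.23, adjusted p = 0.055) and myod1 (0.84 ± 0.28, adjusted p = 0.089) did not pass. The myogenic rises numbered 5 without any 1 IGF1 library or CTR replicate 1, and 3 without CTR replicate 2 or 3. Of 54 sarcomere genes, 3 rose and 3 fell (median 0.224). ttn.1, a titin contig, had 74.4, 79.8 and 74.5 in the IGF1 libraries, against 32.1, 30.7 and 28.3 in the CTR libraries (1.33 ± 0.26, adjusted p = 0.0028), flncb, a filamin of the Z-disc, 1091, 1168 and 955 in IGF1 and 585, 495 and 631 in CTR (0.90 ± 0.15, adjusted p = 6.6e-04), and tpm2, a tropomyosin, 1547, 2112 and 1878 in IGF1 and 2804, 3279 and 3023 in CTR (−0.72 ± 0.15, adjusted p = 0.0061). Without IGF1 replicate 1, IGF1 replicate 3 or CTR replicate 3, 1 sarcomere gene was called lower. The actin gene ACTA1 (1 of many) was also called lower than CTR (−0.54 ± 0.13, adjusted p = 0.014). Against AA, ttn.1 (−1.73, adjusted p = 1.4e-04), ckmb (−2.0, adjusted p = 3.7e-04), actc1a (−1.14, adjusted p = 1.1e-05) and mylpfa (−3.19, adjusted p = 1.0e-04), all contractile or creatine kinase genes, were lower in IGF1. They were picked from those that passed, as 4.29% of all genes did in this direction. Not passing against AA were ACTA1 (1 of many) (−0.27, adjusted p = 0.24), actn3a (−2.43, adjusted p = 0.066) and actn3b (−1.47, adjusted p = 0.21). Members of the list that passed against AA were not counted.

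Few cell cycle genes passed, though most leaned higher. Of 51 genes of mitosis, 3 rose (5.88%, against 3.09% of all genes) and 1 fell, with a median of 0.701. Of the 51, 40 had a positive fold-change, as had 7230 of all 13162 genes. At an unadjusted p under 0.05 in edgeR's test 17 were higher and 2 lower. Of 59 genes of DNA replication 2 rose and none fell (median 0.279). There 45 were positive, and 9 were higher and 3 lower at an unadjusted p under 0.05 in the same test. top2a, which untangles chromosomes, had 29.8, 11.4 and 19.4 in IGF1 and 10.4, 7.30 and 4.24 in CTR (1.63 ± 0.47, adjusted p = 0.046), and tk1, a thymidine kinase, 28.3, 5.70 and 11.4 in IGF1 and 3.21, 2.92 and 2.12 in CTR (2.60 ± 0.62, adjusted p = 0.015). The call of top2a was lost without IGF1 replicate 1 or 3 or CTR replicate 2 or 3 or AA replicate 1 or 2 (adjusted p up to 0.27) and that of tk1 without IGF1 replicate 1 or CTR replicate 2 or 3 (adjusted p up to 0.17). No rise on the mitosis list was called without IGF1 replicate 1, IGF1 replicate 3, CTR replicate 2 or CTR replicate 3, and no rise on the replication list without IGF1 replicate 1 or CTR replicate 2, whereas 4 rises and 2 falls were called there without AA replicate 3 and 1 fall without AA replicate 2. The fall on the mitosis list was not called without any 1 of the 6 IGF1 and CTR libraries. mycn, a growth-linked transcription factor, had 46.8, 28.5 and 40.8 in the IGF1 libraries, against 8.03, 21.9 and 17.7 in the CTR libraries (1.32 ± 0.44, adjusted p = 0.089) and did not pass. With few reads for top2a, tk1 and mycn, their counts can show little.

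Signals between cells fell more often than they rose. Of 59 genes of cytokines, chemokines and JAK-STAT signaling, 11 fell and 2 rose (median −0.211). Besides lepb, the second leptin gene lepa had 19.8, 103 and 57.3 in the IGF1 libraries, against 125, 306 and 245 in the CTR libraries (−2.09 ± 0.41, adjusted p = 0.0033), and the chemokine receptor cxcr4b had 8.50, 5.70 and 17.4 in the IGF1 libraries, against 65.1, 54.8 and 56.9 in the CTR libraries (−2.21 ± 0.38, adjusted p = 9.2e-04). The bradykinin receptor BDKRB2 (1 of many) had 62.4, 51.3 and 61.7 in IGF1 and 283, 239 and 241 in CTR (−2.08 ± 0.21, adjusted p = 5.7e-06) and the macrophage growth factor csf1a 125, 96.9 and 141 in IGF1 and 341, 229 and 292 in CTR (−1.20 ± 0.21, adjusted p = 0.001). All 4 lay without overlap below CTR, as did 431 of the 436 genes called lower. The pentraxin ptx3a, a secreted pattern recognition protein, had 1148, 858 and 915 in IGF1 and 316, 379 and 399.6 in CTR (1.42 ± 0.21, adjusted p = 2.4e-04). The falls numbered 6 without IGF1 replicate 1 or 2, 7 without IGF1 replicate 3, and 5 without CTR replicate 2 or 3, and the rises 1 without IGF1 replicate 1 or CTR replicate 3. Of 50 ERK feedback and immediate early genes, 8 fell and 3 rose (median −0.215). The ETS factors etv4 and etv5b, targets of ERK signaling, had 76.5, 62.7 and 81.1 in IGF1 and 259, 218 and 246 in CTR (−1.67 ± 0.20, adjusted p = 3.2e-05) and 67.3, 59.8 and 62.7 in IGF1 and 116, 155 and 133 in CTR (−1.07 ± 0.22, adjusted p = 0.0039), and junbb, a subunit of AP-1, 607, 607 and 620.3 in IGF1 and 1209, 1188 and 1089.5 in CTR (−0.93 ± 0.12, adjusted p = 8.4e-05). This count was 5 without IGF1 replicate 1 or 3 or CTR replicate 1 or 2, and 4 without CTR replicate 3, and the 3 rises were 0 without IGF1 replicate 1 or CTR replicate 3 and 1 without IGF1 replicate 3 or CTR replicate 1. Of 68 genes of TGF-beta, BMP and myostatin signaling, 6 fell and 1 rose (median −0.155), a count that ranged from 5 to 7 with 1 library left out. fstl3, an antagonist of activin and myostatin, had 341, 248 and 251 in IGF1 and 596, 634 and 610.4 in CTR (−1.12 ± 0.18, adjusted p = 4.8e-04), acvr1ba, a type I activin receptor, 101, 197 and 145 in IGF1 and 233, 339 and 321 in CTR (−1.07 ± 0.21, adjusted p = 0.0036), and lrrc32, which holds latent TGF-beta at the cell surface, 64.5, 45.6 and 67.1 in IGF1 and 144, 153 and 198 in CTR (−1.42 ± 0.26, adjusted p = 0.0017). The gene that rose was rgmd, of the repulsive guidance molecule family, at 428, 325 and 277 in IGF1 and 161, 176 and 155 in CTR (1.07 ± 0.18, adjusted p = 6.7e-04).

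Lipid genes changed in both directions. Of 68 genes of fatty acid and glycerolipid metabolism, 7 rose and 5 fell (median 0.096). Besides gpam, the fatty acid-binding protein gene fabp11a had 446, 792 and 709 in the IGF1 libraries, against 1514, 2449.9 and 1869 in the CTR libraries (−1.6 ± 0.19, adjusted p = 4.2e-05) and plin2, which coats lipid droplets, 1380.4, 1764 and 1628 in the IGF1 libraries, against 2819, 3352 and 3303 in the CTR libraries (−0.99 ± 0.15, adjusted p = 2.3e-04). Both were lower without overlap, as were 431 of the 436 genes called lower, and plin2 was higher than in AA (1.18, adjusted p = 4.3e-05). acadm, of mitochondrial beta-oxidation, had 582, 496 and 479 in IGF1 and 274, 325 and 321 in CTR (0.76 ± 0.15, adjusted p = 0.0042). Of 38 sterol genes, 1 rose and 5 fell (median 0.148). ABCA1, the cholesterol efflux pump, had 80.1, 111 and 146 in the IGF1 libraries, against 506, 577 and 742 in the CTR libraries (−2.41 ± 0.26, adjusted p = 1.4e-05), apoeb, an apolipoprotein E, 559, 1522 and 1678 in the IGF1 libraries, against 3084, 5151 and 6477 in the CTR libraries (−1.98 ± 0.33, adjusted p = 7.9e-04), and hsd3b7, of bile acid synthesis, 590.3, 627 and 633 in IGF1 and 1290.0, 1405 and 1321 in CTR (−1.12 ± 0.12, adjusted p = 1.2e-05). hmgcra, the rate-limiting enzyme of sterol synthesis, had 176, 168 and 100.1 in IGF1 and 90.8, 45.3 and 66.5 in CTR (1.10 ± 0.29, adjusted p = 0.028) and lost its call without IGF1 replicate 1 or 2 or CTR replicate 2 or 3 (adjusted p up to 0.17). The 7 rises of the fatty acid list were 3 without IGF1 replicate 1, 4 without IGF1 replicate 3, 4 without CTR replicate 2 and 2 without CTR replicate 3, and its 5 falls were 3 without IGF1 replicate 1 or CTR replicate 3; the sterol falls were 3 without IGF1 replicate 1 or 3 or CTR replicate 1 or 3.

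Glucose and energy genes rose by small steps. Of 59 genes of glycolysis, glycogen and glucose transport, 12 rose and 1, the sugar phosphate regulator pfkfb4b, fell (median 0.34). pck2, the mitochondrial PEP carboxykinase, had 376, 356 and 387 in the IGF1 libraries, against 228, 204 and 231 in the CTR libraries (0.76 ± 0.16, adjusted p = 0.0055), pgd, of the pentose phosphate path, 1061, 1123 and 1061 in the IGF1 libraries, against 641, 589.8 and 651 in the CTR libraries (0.78 ± 0.14, adjusted p = 0.001), and the enolase eno1a 7320.3, 7601 and 7194 in IGF1 and 5155, 5179 and 5256 in CTR (0.50 ± 0.11, adjusted p = 0.0083). All 3 kept their call, but the list's count was 6 without IGF1 replicate 1, 7 without IGF1 replicate 3, CTR replicate 1 or CTR replicate 2, and 5 without CTR replicate 3, and the fall was not called without IGF1 replicate 2 or 3 or CTR replicate 3. Of 74 genes of oxidative phosphorylation, 6 rose and none fell (median 0.324), among them the ATP synthase subunit atp5f1c (0.64 ± 0.13, adjusted p = 0.0062) and the cytochrome c gene cycsb (0.87 ± 0.18, adjusted p = 0.0047), and 2 did so without CTR replicate 3 and 10 without AA replicate 3. In the redox list, 5 of 40 rose and 3 fell. nnt, a mitochondrial transhydrogenase that makes NADPH, had 321, 311 and 269.8 in the IGF1 libraries, against 90.8, 82.5 and 55.9 in the CTR libraries (1.99 ± 0.20, adjusted p = 8.2e-06). gpx1b, a selenium-dependent glutathione peroxidase, had 41.1, 39.9 and 37.8 in the IGF1 libraries, against 125, 117 and 104 in the CTR libraries (−1.54 ± 0.27, adjusted p = 0.0014), lower like selenop. One member of this list was called higher without CTR replicate 3, 2 without IGF1 replicate 2, IGF1 replicate 3 or CTR replicate 1, and 3 without IGF1 replicate 1 or CTR replicate 2. Of 36 clock and glucocorticoid-linked genes, 2 rose and none fell (median −0.021). They were hsd11b2 and hsd11b1la, whose call was lost without IGF1 replicate 1 or 2 or CTR replicate 1, 2 or 3 (adjusted p up to 0.11).

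Where IGF1 differed from amino acids was tested directly. At an adjusted p of 0.05 or less, 626 genes (4.76% of those tested) were higher and 564 (4.29%) were lower in IGF1 than in AA, and these counts were 399 and 316 without IGF1 replicate 3. Scaled to library size alone, 379 were higher and 1000 lower. The shallowest library, AA replicate 3, held 1366043 raw counts. Several genes that fell with IGF1 relative to CTR did not pass against AA: fbxo32 differed from AA by 0.26 (adjusted p = 0.62), igfbp1a by 0.29 (0.48), lepb by −0.19 (0.62) and lepa by −0.05 (0.97), which does not show that the groups are alike. Others were below both: pik3ip1 lay −1.90 from AA (3.1e-06), selenop −1.97 (2.2e-07), gpam −2.06 (1.8e-06), igfbp6a −3.11 (0.0041) and BDKRB2 (1 of many) −2.22 (2.6e-06). Likewise igfbp5b, aspn, adamts12 and ptx3a, which rose relative to CTR, were above AA by 1.84 (3.2e-05), 1.72 (1.9e-05), 2.24 (9.0e-06) and 1.88 (2.1e-05). ARRDC4 lay between the groups, lower than CTR and higher than AA by 1.27 (5.7e-05), and abi3bpb was higher than CTR and lower than AA, at −0.92 (0.017).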

How the data were processed

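Poly(A) RNA of 9 libraries was sequenced (TruSeq stranded mRNA, paired-end). By the study's methods, the authors trimmed the reads, assembled them with Trinity, annotated contigs by BLASTx and OmicsBox against proteins of 3 fish species and mapped reads with Bowtie2; the counting tool is not given in the sources used here, so use of strand is unknown. The submitters' notes list FastQC 0.11.8, Trimmomatic, DESeq2 and the build GRCz11, with no role. The deposited count table holds whole-number counts per contig and library, without normalization; 0% of its counts lack a gene name, and 0 per-sample columns were left unused. The second table holds a signal that the authors made by dividing those counts by DESeq2 size factors. No contig sequence, length or genome was used here. Replicates are cultures as the study states, and p-values measure the spread between these libraries.

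Raw counts of contigs with a mean of 10 or more over the 9 libraries entered edgeR 4.0.16 under R 4.3.3 (TMM, quasi-likelihood F test by the earlier deviance method, group as the only term, contrast IGF1 minus CTR). P-values were adjusted by Benjamini-Hochberg over 35575 contigs. A call is an adjusted p of 0.05 or less, and differential expression also needs 2-fold or more. The standard error of a log2 fold-change was taken as its size divided by the root of F. The fit was tested on simulated counts with the same variability for every contig and no outlying library, which cannot check the calls in these data. Marker levels are raw counts summed over all contigs of the listed names and scaled to the library total, as CPM, a basis chosen after seeing the data. Total raw counts per library, from 1366043 to 53525876, set the precision: low contigs of shallow libraries carry few reads.

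The comparison, gene lists and tests were chosen with earlier results of these data known. The rule for named genes takes the 12 largest rises and 12 largest falls with an informative symbol and no overlap, the 6 smallest adjusted p of each list, all members of lists of 30 or fewer, the 15 smallest adjusted p with an informative symbol, and genes the study names from the transcriptome. Of the last, tgfbr2 matched no tested name and is not used here. INSC was kept out of the insulin stem. Alternatives were DESeq2 1.42.0, other scalings and filters, the 6 libraries alone, a replicate block, counts summed per gene, limma 3.58.1 on log2 of the normalized count plus 1 or 0.5, any contig of a gene, no fold minimum, and each library left out. edgeR's newer quasi-likelihood method was added after seeing the data.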

Additional observations from a re-analysis of the deposited data

Results flagged for a closer look

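Of the 19365 gene names, 6190 had reads but no contig averaging 10 raw counts, and they stand outside the comparisons above. In a fit without that filter, 14 of them were called higher in IGF1 than in CTR by 2-fold or more and 8 were called lower. These are signals in data that the main test leaves out, they rest on few reads, and the genes are not named.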

How the results depend on the processing

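Of 208 named genes that were called, none changed direction under any alternative, and 131 kept their call in all of them. Many of the 208 were named for a large change or a small adjusted p in the main fit, so that this is no separate result. The main counts were 386 differentially expressed genes, 169 up- and 217 down-regulated, and 407 genes higher and 436 lower at an adjusted p of 0.05 or less. With edgeR's newer quasi-likelihood method, chosen after seeing the data, they were 639, 310, 329, 787 and 749. Limma on log2 of the normalized count plus 1 gave 242 genes, 95 up-regulated, 248 higher and 265 lower, and limma with 0.5 added gave 231, 91, 140, 243 and 253. With counts summed per gene name 105 were up-regulated and 214 higher, 516 of the 843 calls were kept and 1 gene called in the main fit changed sign. In that setting 13 synthetases, 5 glycolysis genes, 1 myotube marker and 0 proteasome genes were called higher, and 10 FoxO-linked genes lower. Without the fold minimum the first 3 counts are 843, 407 and 436. The other alternatives stayed within 1.5 times; DESeq2 gave 448 genes, 575 higher and 554 lower, and kept 826 of the 830 calls it gave a p. With 1 library left out, 252 to 472 genes were differentially expressed, 96 to 213 up- and 155 to 259 down-regulated, with 188 to 572 higher and 241 to 599 lower. The lowest numbers came without IGF1 replicate 1 (252 genes) and without CTR replicate 3 (188 higher, 241 lower), and of the 843 calls 426 to 843 were kept. Against AA, 626 genes were higher and 564 lower; with no normalization beyond library size 379 were higher and 1000 lower, and with 1 library left out 399 to 624 were higher and 316 to 610 lower.

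Deviations from the group mean correlated by 0.175, 0.039 and 0.098 between same-numbered IGF1 and CTR libraries. Between differently numbered ones the correlations ran from −0.142 to 0.05, and IGF1 replicate 2 correlated best with CTR replicate 3 (0.05). These small values cannot settle whether libraries of the same number share a culture. The numbers were not used as pairs in the main fit. With the replicate number as a block, 395 genes were differentially expressed, 478 were higher and 524 lower than CTR, and 749 were higher and 663 lower than AA. The depth of IGF1 replicate 2 limits genes of few reads: 4.33% of its tested contigs had 0 counts.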
